A study of Caenorhabditis elegans with 4 samples.

Results

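Aquaporins are membrane channels that let water, and in some members glycerol, cross cell membranes along a gradient. The 10 genes described here are *aqp-1* to *aqp-8*, *aqp-10* and *aqp-11* of the nematode *Caenorhabditis elegans*, found among 21895 rows of the raw gene count table by the RefSeq symbol of their locus tag. All 10 had a row. They were followed in whole worms kept with Cyclo(Pro-Tyr), a ring-shaped dipeptide of proline and tyrosine, or with its solvent, DMSO.

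In *C. elegans*, *aqp-1* to *aqp-8* are the canonical channels, while *aqp-10* and *aqp-11* belong to a more divergent branch of the superfamily. Expressed in frog oocytes, the products of *aqp-2*, *aqp-4* and *aqp-6* raise permeability to water, that of *aqp-1* raises permeability to glycerol, and those of *aqp-3* and *aqp-7* raise both. Worm aquaporins are active in the intestine, the epidermis and the excretory cell, the tissues through which the animal balances its water. Glycerol is the main solute that worms accumulate in salty surroundings.

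All 4 libraries came from entire worms of the wild-type Bristol N2 strain, grown on *E. coli* OP50 and described as embryos or first-stage larvae at the start. In each group 2 libraries were made, after 24 h of shaking in M9 buffer with DMSO alone or with 0.25 mg/mL Cyclo(Pro-Tyr). The labels do not say whether the 2 libraries of a group came from separate cultures, so p-values measure only the spread between these libraries. The study asked which genes respond to the compound, beside survival and lifespan.

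Libraries held 40240674 to 52987317 counts. On the first principal component of log2 CPM, with 76.0% of the variance, the DMSO libraries lay at -20.1 (replicate 1) and -31.6 (replicate 2) and the treated ones at 10.8 and 40.9, so treated replicate 2 stood farthest out. Markers of intestine, epidermis, neurons, muscle and germline were all detected in every library, as were *exc-4*, *exc-9*, *vha-5*, *ceh-6* and *pgp-12* of the excretory cell. No listed marker was at 0. In RNA of whole animals, fewer cells of a type and less RNA per cell cannot be told apart.

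Per length, the family spanned a range from a very abundant channel to one near the limit of detection. Levels are given here as CPM (counts scaled to library size by TMM) per kilobase of exon, the scale on which different genes can be set side by side. The water channel *aqp-2* (CELE_C01G6.1, chromosome II) was the highest, at 607 ± 94.6 CPM per kilobase (mean ± SD over all 4 libraries). The glycerol and water channel *aqp-7* (CELE_M02F4.8, chromosome X) followed at 181 ± 29.0 and *aqp-10* (CELE_ZK1321.3, chromosome II) at 82.0 ± 14.1. These 3 were apart from each other and from the rest, since the lowest library of each lay above the highest library of the next gene.

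A middle group held *aqp-1* (CELE_F32A5.5, chromosome II) at 52.2 ± 2.38 CPM per kilobase, *aqp-11* (CELE_ZK525.2, chromosome III) at 48.1 ± 2.86 and *aqp-4* (CELE_F40F9.9, chromosome V) at 42.9 ± 2.40. Within this group the ranges over the 4 libraries overlapped for *aqp-1* and *aqp-11*, as they did for *aqp-11* and *aqp-4*. Inside each library the order was nonetheless the same. For *aqp-1*, *aqp-11* and *aqp-4* in turn it was 55.7, 51.6 and 45.7 in DMSO replicate 1 and 50.7, 45.4 and 40.4 in Cyclo(Pro-Tyr) replicate 2. The order of *aqp-11* and *aqp-4* depended on the length used, since it was the reverse per kilobase of coding length. The excretory cell channel *aqp-8* (CELE_K02G10.7, chromosome X) came next at 20.2 ± 1.87. Below it lay *aqp-6* (CELE_C32C4.2, chromosome V), whose promoter is used as a marker of the IL1 head neurons, at 8.14 ± 0.478, and *aqp-5* (CELE_C35A5.1, chromosome V) at 5.55 ± 0.686. The last was *aqp-3* (CELE_Y69E1A.7, chromosome IV) at 0.149 ± 0.0668 CPM per kilobase.

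**Figure D1:**
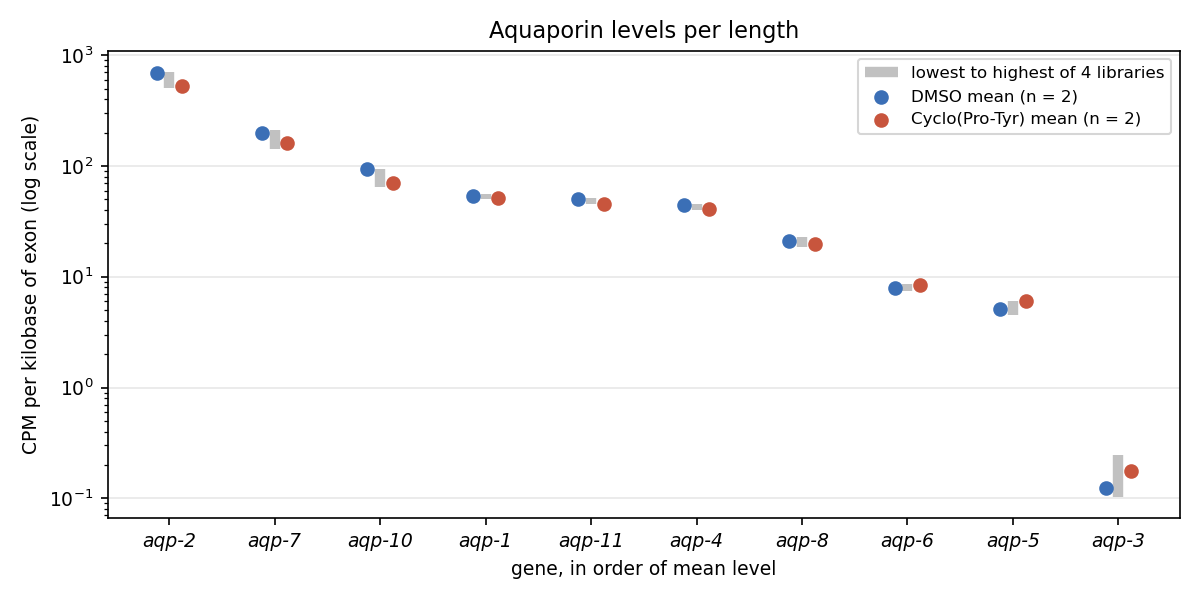
Level of each aquaporin in CPM per kilobase of exon on a log scale, in order of the mean over 4 libraries. Grey bars run from the lowest to the highest library and points are the DMSO and Cyclo(Pro-Tyr) means of 2 libraries each. The family runs from 607 for *aqp-2* to 0.149 for *aqp-3*, and only *aqp-1*, *aqp-11* and *aqp-4* have neighbouring bars that overlap.

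The genes were of similar build. In the Ensembl annotation of assembly WBcel235 their longest coding transcripts had between 5 and 7 exons, and the predicted proteins ran from 273 residues (*aqp-4*) to 421 (*aqp-3*). Between them *aqp-2* and *aqp-7* took most of the family's counts. In CPM, *aqp-2* alone made up 61.3% to 66.1% of the summed level of the 10 genes in a library, and *aqp-2* with *aqp-7* made up 78.3% to 81.4%. Exons of 3 members overlap a gene on the opposite strand, over 9.01% of the exon bases of *aqp-1* (with *ctsa-3.1*), 2.19% of those of *aqp-6* and 1.04% of those of *aqp-3*. Whether the counting used strand is not given in the sources used here, so that part of their counts is uncertain. On the same strand, *aqp-4* shares 39 of its 1076 exon bases with *marc-1*, so that part is uncertain whatever the strand setting.

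No aquaporin passed the test between Cyclo(Pro-Tyr) and DMSO. By edgeR's quasi-likelihood test at a Benjamini-Hochberg adjusted p below 0.05, 0 of the 9 tested members were called, where 2.05% of all 19439 tested genes were. The tenth, *aqp-3*, was too low to be tested. At an unadjusted edgeR p under 0.05 there were 2 members, *aqp-2* and *aqp-10*, both lower, where 27.3% of all tested genes reached that level. DESeq2's Wald test called 1 member, *aqp-2*, where it called 10.9% of the genes to which it gave an adjusted p, and limma-voom called 0. Without Cyclo(Pro-Tyr) replicate 1, edgeR called 2 members, *aqp-7* and *aqp-10*, where it called 21.8% of all genes tested.

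The log2 ratios of Cyclo(Pro-Tyr) over DMSO, as fitted by edgeR, of the 9 tested members ran from -0.40 to 0.24, and their 95% intervals, not adjusted for the number of genes, ran from -0.71 to 0.63 at the extremes. All 9 intervals thus lay inside a 2-fold change in either direction. The median log2 ratio was -0.13 for the 9 members and -0.0032 for all tested genes. In absolute size the medians were 0.14 and 0.25. Of the 9 members 7 had a value below 0, as had 50.3% of all tested genes, and of these 7 *aqp-1* and *aqp-8* turned above 0 without DMSO replicate 1.

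Counted by library, the treated group lay wholly below DMSO for 5 tested members and wholly above it for 2, and the groups overlapped for 2. Among all tested genes 30.8% lay wholly below and 29.6% wholly above. The summed level of the 10 genes was 1514 and 1521 CPM in DMSO replicates 1 and 2, and 1272 and 1149 CPM in Cyclo(Pro-Tyr) replicates 1 and 2. Most of that difference lay in *aqp-2*. Without it the sums were 561 and 516 CPM in DMSO and 492 and 425 CPM in Cyclo(Pro-Tyr).

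**Figure D2:**
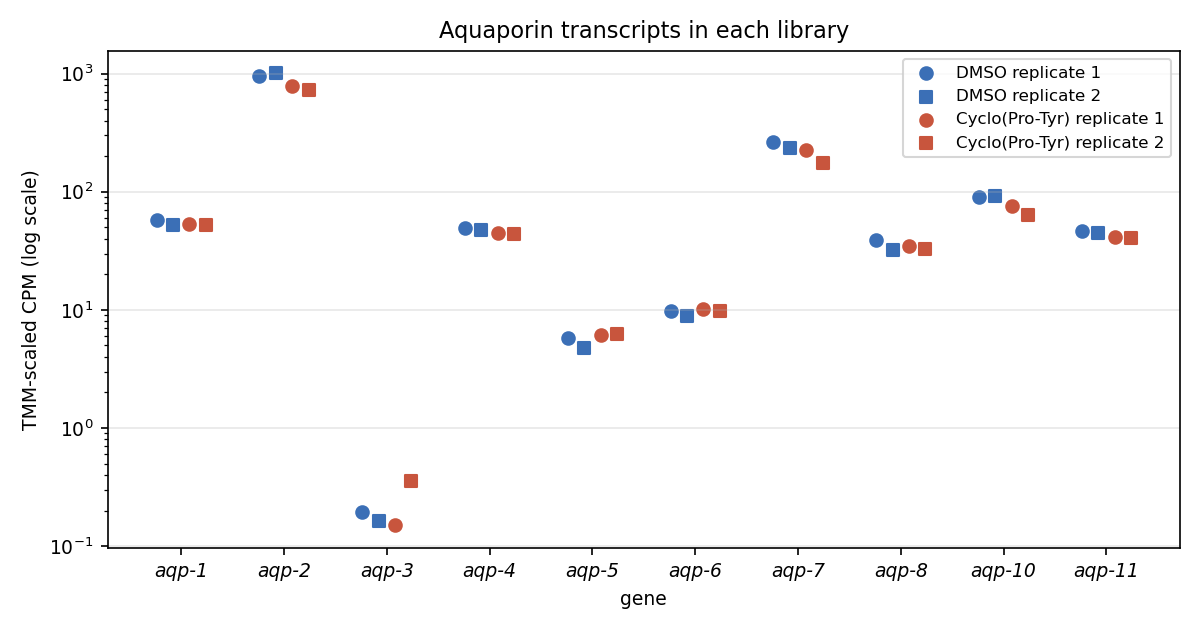
TMM-scaled CPM of each aquaporin in each library on a log scale, with DMSO in blue and Cyclo(Pro-Tyr) in red, circles for replicate 1 and squares for replicate 2. The points of a gene lie close together against the spread between genes, and *aqp-2* is highest in all 4 libraries, at 724 to 1005 CPM.

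The channels for water come first. The most abundant, *aqp-2*, had 48970 and 43521 counts in DMSO replicates 1 and 2 and 41515 and 28265 in Cyclo(Pro-Tyr) replicates 1 and 2, which is 953, 1005, 779 and 724 CPM. Both treated libraries were lower than both DMSO libraries, and the gap between groups was wider than the gap within either. Its log2 ratio was -0.38 ± 0.14 (SE), or 76.8% of the DMSO level, with a 95% interval of -0.71 to -0.06 and an adjusted p by edgeR of 0.134. DESeq2's Wald test gave an adjusted p of 0.0479, and limma-voom gave 0.102. With 1 library left out, the log2 ratio of *aqp-2* by edgeR ran from -0.43 to -0.33.

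The intestinal water channel *aqp-4* had 49.2 and 47.3 CPM in DMSO and 44.7 and 43.5 CPM in Cyclo(Pro-Tyr), for replicates 1 and 2 in turn. The groups did not overlap, but they differed little, by a log2 ratio of -0.13 with an interval of -0.37 to 0.10 and an adjusted p by edgeR of 0.434. For *aqp-6* the values were 9.73 and 8.87 CPM in DMSO and 10.2 and 9.84 CPM in Cyclo(Pro-Tyr). Treated libraries were thus slightly above DMSO, and the log2 ratio of 0.11 had an interval of -0.21 to 0.42 and an adjusted p by edgeR of 0.646.

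The glycerol channels differed among themselves in level far more than between groups. For *aqp-1*, the intestinal glycerol channel whose expression is known to be lowered by glucose feeding and to depend on insulin signalling, DMSO gave 57.5 and 52.3 CPM and Cyclo(Pro-Tyr) gave 53.3 and 52.3 CPM. The treated values lay within the DMSO range. Its log2 ratio was -0.05 with an interval of -0.30 to 0.19 and an adjusted p by edgeR of 0.770. Without DMSO replicate 1 the value was 0.02, so no direction can be given for it.

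For *aqp-7*, which carries glycerol and water, DMSO gave 262 and 233 CPM and Cyclo(Pro-Tyr) gave 226 and 176 CPM. Treated replicate 1 lay just under the lower DMSO library and treated replicate 2 well under it, so the treated group was the more spread, with an SD of 35.9 CPM against 20.5 CPM in DMSO. The log2 ratio was -0.30 with an interval of -0.64 to 0.04 and an adjusted p by edgeR of 0.231. It was -0.13 without Cyclo(Pro-Tyr) replicate 2. Without Cyclo(Pro-Tyr) replicate 1 it was -0.50 with an adjusted p by edgeR of 0.0277, where its alternatives spanned 0.0277 to 0.760. The size for *aqp-7* therefore rested on treated replicate 2, the library that stood farthest out.

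The third glycerol channel, *aqp-3*, had 10 and 7 counts in DMSO and 8 and 14 counts in Cyclo(Pro-Tyr). These are 0.195, 0.162, 0.150 and 0.359 CPM, while 3 counts, the upper limit behind an observed 0, would be 0.0563 to 0.0768 CPM. The exact 95% Poisson interval, which covers counting error only, spanned 0.0650 to 0.358 CPM over the DMSO libraries and 0.0648 to 0.602 CPM over the treated ones. A difference was not detectable at this depth. When no genes were filtered out, edgeR gave *aqp-3* a log2 ratio of 0.42 ± 0.62 (SE) and an adjusted p of 0.718.

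In the excretory cell, a single large cell whose canals expel water, *aqp-8* is the aquaporin that lines the canals. It had 39.2 and 32.1 CPM in DMSO and 34.5 and 32.7 CPM in Cyclo(Pro-Tyr). Both treated values lay between the DMSO values. The log2 ratio of -0.09 had an interval of -0.38 to 0.21 and an adjusted p by edgeR of 0.699, and it turned to 0.07 without DMSO replicate 1. The gap between the DMSO libraries (-0.29 on the log2 scale) exceeded the difference of either treated library from their mean.

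The gene *aqp-5*, for which no transport activity is named here, was the member with the highest log2 ratio. It had 5.82 and 4.74 CPM in DMSO and 6.18 and 6.30 CPM in Cyclo(Pro-Tyr). Treated libraries were above both DMSO libraries, but they exceeded the DMSO mean by less than the DMSO libraries differed from each other. The log2 ratio was 0.24 ± 0.17 (SE), an interval of -0.16 to 0.63 and an adjusted p by edgeR of 0.397. Without DMSO replicate 1 the log2 ratio was 0.40 and without DMSO replicate 2 it was 0.10.

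Of the divergent members, *aqp-10* had the smallest p of the family. Its counts were 4664 and 4016 in DMSO and 4011 and 2477 in Cyclo(Pro-Tyr), or 90.7, 92.8, 75.3 and 63.4 CPM. The DMSO libraries were close together and both treated libraries lay under them. Its log2 ratio was -0.40 ± 0.12 (SE), or 75.6% of the DMSO level, with an interval of -0.67 to -0.13 and an adjusted p by edgeR of 0.0864. Without Cyclo(Pro-Tyr) replicate 1 the log2 ratio was -0.53 with an adjusted p by edgeR of 0.00809 (its alternatives spanned 0.00809 to 0.384), and leaving out Cyclo(Pro-Tyr) replicate 2 gave -0.28. In *aqp-11*, the other divergent member, DMSO gave 46.4 and 44.4 CPM and Cyclo(Pro-Tyr) gave 41.5 and 40.9 CPM. The log2 ratio of *aqp-11* was -0.14 with an interval of -0.38 to 0.09 and an adjusted p by edgeR of 0.402.

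**Figure D3:**
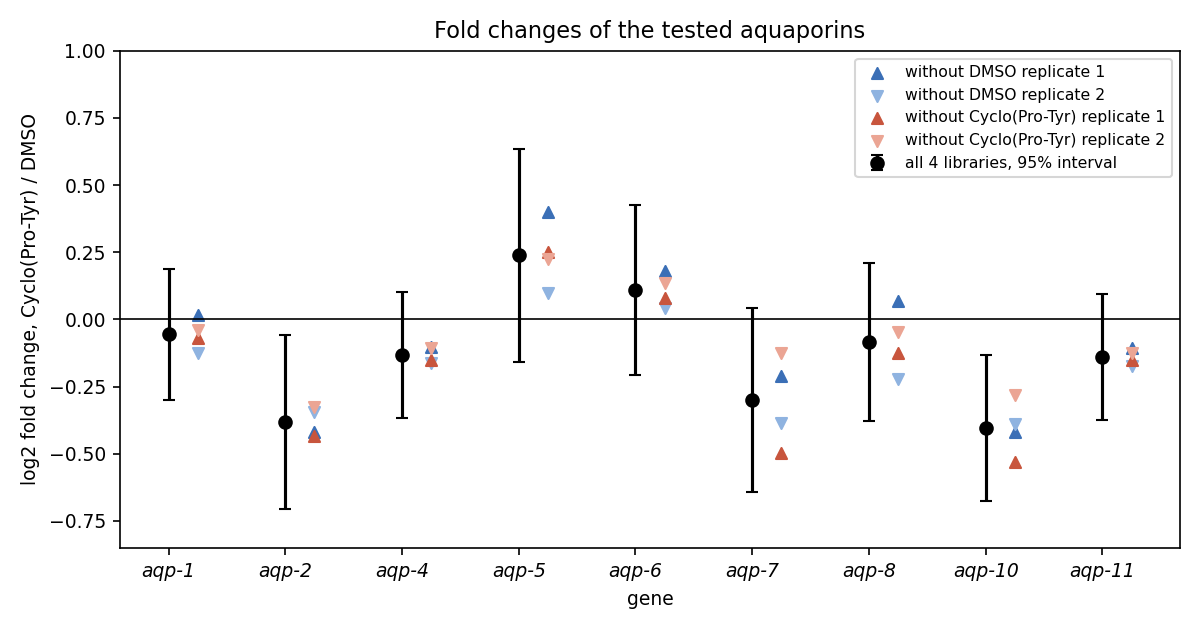
Log2 ratio of Cyclo(Pro-Tyr) over DMSO for the 9 tested aquaporins. Black points with bars are the fit to all 4 libraries with its 95% interval, and triangles are the fits without 1 library each. The bars of *aqp-2* and *aqp-10* lie below 0, although neither gene passed the adjusted test, and the triangles of *aqp-1* and *aqp-8* fall on both sides of 0.

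The treated libraries differed most from each other in *aqp-7* and *aqp-10*. In *aqp-1*, *aqp-4*, *aqp-5*, *aqp-6*, *aqp-8* and *aqp-11* they differed less on the log2 scale than the DMSO libraries did. Treated replicate 2 was below treated replicate 1 for 8 of the 9 tested members, all but *aqp-5*. DMSO replicate 2 was likewise below DMSO replicate 1 for 7 of the 9, all but *aqp-2* and *aqp-10*. The matching shares of all tested genes were not counted, so these counts describe no trait of the family. In *aqp-10* treated replicates 1 and 2 lay at -0.28 and -0.53 from the DMSO mean on the log2 scale, and in *aqp-7* at -0.13 and -0.50. In *aqp-2* they lay at -0.33 and -0.44, so this gene had a similar value in both. For *aqp-4*, with -0.11 and -0.15, and *aqp-11*, with -0.13 and -0.15, the treated libraries were nearly equal.

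**Figure D4:**
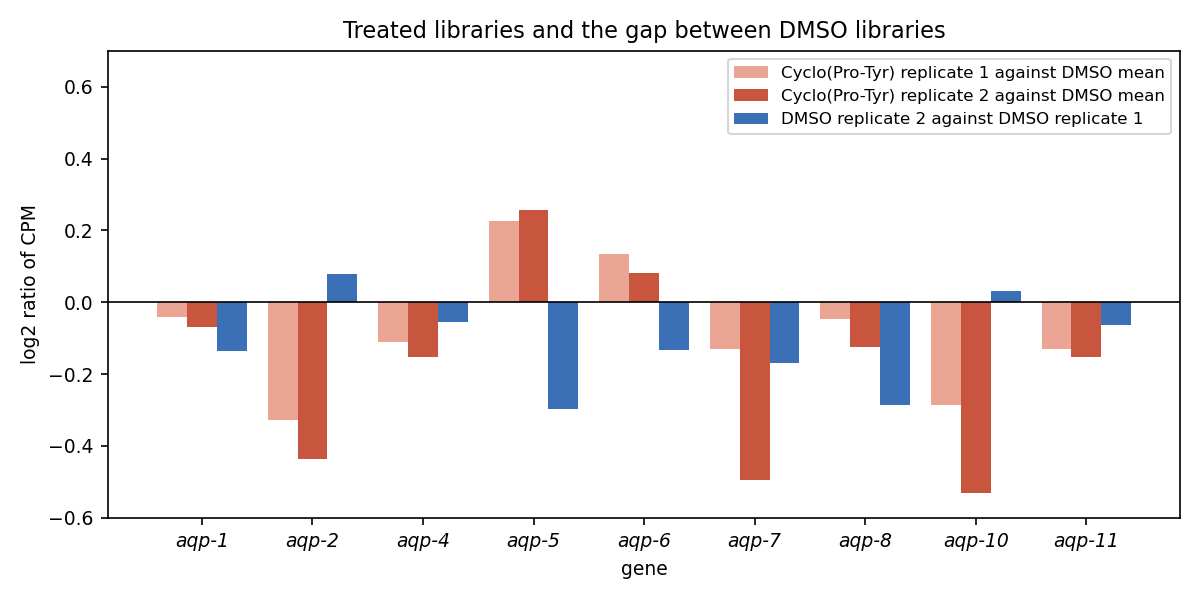
Log2 ratio of CPM for the 9 tested aquaporins. Red bars are treated replicate 1 (pale) and treated replicate 2 (dark) against the DMSO mean, and blue bars are DMSO replicate 2 against DMSO replicate 1. The dark red bars of *aqp-10*, *aqp-7* and *aqp-2* reach -0.53, -0.50 and -0.44, while the pale bar of *aqp-7* ends at -0.13, and the blue bars of *aqp-1*, *aqp-5* and *aqp-8* are longer than their red bars.

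Genes that share the tasks of water and glycerol balance with the channels were compared next. A list of 18 genes held enzymes and transporters of small protective solutes with regulators of the osmotic response. All 18 were tested, and 4 passed, 1 higher and 3 lower, where 0.715% of all tested genes were called higher and 1.33% lower. The median log2 ratio of the list was -0.24.

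Glycerol synthesis supplied all 3 of the lower calls. The *gpdh-2* gene (CELE_K11H3.1) encodes a glycerol-3-phosphate dehydrogenase, which makes the precursor of glycerol. It had 240.1 and 237 CPM in DMSO and 149 and 124 CPM in Cyclo(Pro-Tyr), with wide separation of the groups. It fell by 0.80 on the log2 scale with a standard error of 0.12 and an adjusted p by edgeR of 0.0363.

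The genes *pgph-1* and *pgph-2* encode phosphatases that release glycerol from that precursor. In *pgph-1* (CELE_K09H11.7) DMSO libraries averaged 8.44 ± 0.381 CPM and treated libraries 4.62 ± 0.373 CPM (SD, n = 2 each). In *pgph-2* (CELE_F44E7.2) the averages were 10.3 ± 0.0101 and 5.69 ± 0.643 CPM. Both fell, by 0.87 and 0.85 on the log2 scale, with an adjusted p by edgeR of 0.0458 for each. How the counting divided reads between these related genes is not known.

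The remaining members of this short route, named after their values were seen, lay in the same direction without passing the test. For *gpdh-1*, the dehydrogenase gene known to be induced by high salt, DMSO gave 17.9 and 14.8 CPM and Cyclo(Pro-Tyr) gave 10.96 and 10.58 CPM, a log2 ratio of -0.60 with an adjusted p by edgeR of 0.0627. For *pgph-3* the means were 14.9 ± 1.19 and 7.74 ± 2.33 CPM, a log2 ratio of -0.93 with an adjusted p by edgeR of 0.0563.

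The higher call was *clh-3* (CELE_E04F6.11), a chloride channel of the ClC family that opens on cell swelling. It had 11.34 and 12.57 CPM in DMSO and 20.4 and 21.9 CPM in Cyclo(Pro-Tyr). It rose by a log2 ratio of 0.82 ± 0.12 (SE) and an adjusted p by edgeR of 0.0355. Its known regulators, the kinases *gck-3* and *wnk-1*, had log2 ratios of 0.06 and 0.41 with adjusted p by edgeR of 0.757 and 0.127.

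None of the 4 calls of this list was kept in edgeR without DMSO replicate 1 or without DMSO replicate 2, fits in which edgeR called 0 and 4 genes in the whole table and gave 3649 and 2605 an unadjusted p under 0.05. For *gpdh-2* the adjusted p was 0.219 and 0.339 there, and its log2 ratio was -0.79 and -0.81. Without Cyclo(Pro-Tyr) replicate 1 the list held 11 calls, where 21.8% of all tested genes were called, and without Cyclo(Pro-Tyr) replicate 2 it held 7, where 4.95% were. The filter of at least 5 CPM in 2 libraries left edgeR 0 calls in the list and in the whole table, with 3736 genes at an unadjusted p under 0.05. DESeq2 called 7 genes of the list, against 10.9% of all genes with an adjusted p, and limma-voom 4, against 2.21%.

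**Figure D5:**
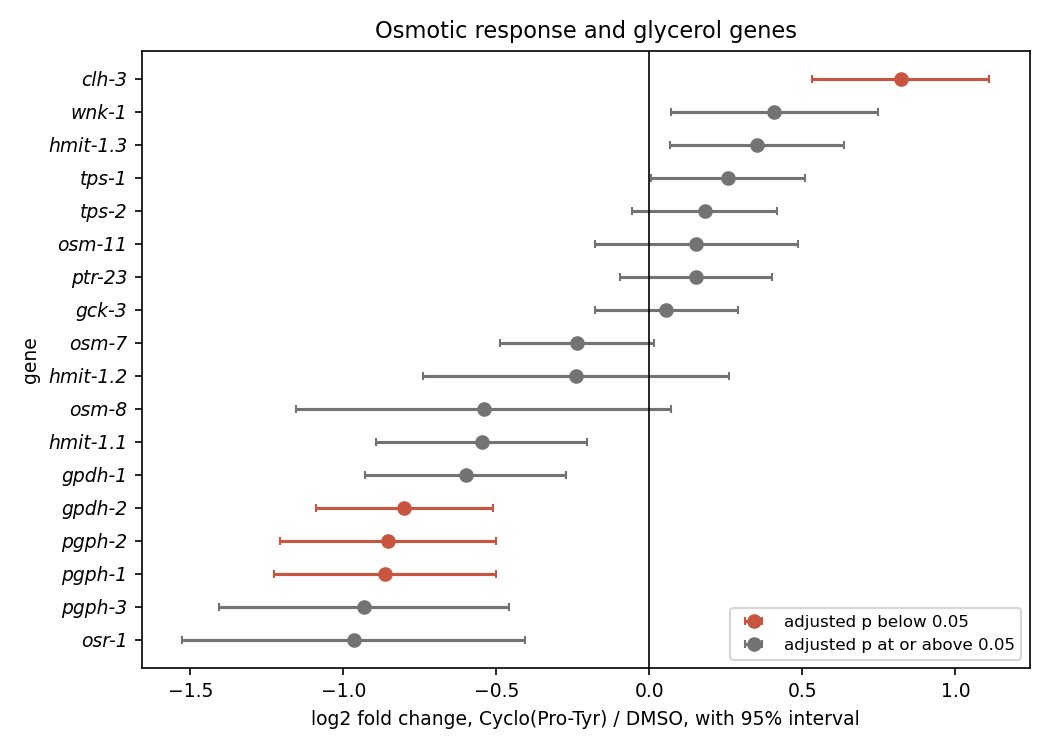
Log2 ratio of Cyclo(Pro-Tyr) over DMSO with its 95% interval for the 18 osmotic response and glycerol genes, with genes past the adjusted threshold in red. The red points of *gpdh-2*, *pgph-1* and *pgph-2* lie at -0.80 to -0.87 and that of *clh-3* at 0.82. All 18 genes run from -0.97 to 0.82, and the 9 tested aquaporins ran from -0.40 to 0.24.

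Genes of the excretory canal, where *aqp-8* acts, were listed for 21 symbols, of which 20 had a row and were tested. The only call was again *clh-3*, also on this list, where 2.05% of all tested genes were called. At an unadjusted edgeR p under 0.05 there were 7, where 27.3% of all tested genes reached that level. The treated group lay wholly above DMSO for 9 genes and wholly below it for 2, against 29.6% and 30.8% of all tested genes. The median log2 ratio was 0.15. After *clh-3* the smallest p belonged to *sulp-4*, of the sulfate permease family, and *exc-6*, a formin of the canal, both named after their values were seen. Their log2 ratios were 0.55 and -0.42, with adjusted p by edgeR of 0.0693 and 0.0864. The *ceh-6* gene, a POU homeobox factor known to drive *aqp-8* in the worm, had 20.5 and 20.7 CPM in DMSO and 23.1 and 20.1 CPM in Cyclo(Pro-Tyr). Its log2 ratio was 0.07, at an adjusted p by edgeR of 0.756. The *exc-4* gene, which encodes a chloride intracellular channel homologue of the canal, had a log2 ratio of 0.01.

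Subunits of the vacuolar proton pump, which sits with *aqp-8* on vesicles of the canal, gave 0 calls among 21 tested genes by edgeR. Of all tested genes edgeR called 2.05%. At an unadjusted edgeR p under 0.05 there was 1 subunit, where 27.3% of all tested genes reached that level. DESeq2 called 0, against 10.9% of all genes with an adjusted p, and limma-voom 0, against 2.21%. Of the 21 log2 ratios 17 were below 0, as were 50.3% of all tested genes. The treated group lay wholly below DMSO for 9 subunits and wholly above it for 2, against 30.8% and 29.6% of all tested genes. The smallest p in this list belonged to *vha-12*, whose DMSO mean was 366 ± 10.4 CPM and treated mean 303 ± 16.2 CPM, a log2 ratio of -0.27 and an adjusted p by edgeR of 0.179. Next was *unc-32*, with a log2 ratio of 0.19 and an adjusted p by edgeR of 0.302. The list's log2 ratios all lay between -0.27 and 0.19.

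Insulin signalling is known to influence *aqp-1* expression through the transcription factor DAF-16. Of 14 genes of that pathway and its targets 2 passed the test, both higher, where 0.715% of all tested genes were called higher. The median log2 ratio of the list was 0.21. Values were above 0 for 11 genes and below 0 for 3, where 50.3% of all tested genes were below 0. Those below 0, named after their values were seen, were *ins-7* at -0.34, *lys-7* at -0.25 and *dod-3* at -0.05. The *daf-16* gene (CELE_R13H8.1) rose from 146 ± 5.81 to 245 ± 18.7 CPM, a log2 ratio of 0.75 with an adjusted p by edgeR of 0.0355. The other call was *hsp-12.6*, of the small heat shock family, which rose by 1.05 on the log2 scale at the same adjusted p. Neither was called by edgeR without DMSO replicate 1 or without DMSO replicate 2, the fits with 0 and 4 calls in the whole table. The log2 ratios there were 0.71 and 0.79 for *daf-16* and 1.22 and 0.90 for *hsp-12.6*. Beside these, *aqp-1* had its log2 ratio of -0.05.

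Of the markers of intestine, epidermis, neurons, muscle and germline and the moulting and stage genes, 1 germline gene passed the edgeR test and no other. Among all tested genes 2.05% passed that test, and 27.3% had an unadjusted edgeR p under 0.05. Epidermis markers summed to 402 and 484 CPM in DMSO and to 333 and 204 CPM in Cyclo(Pro-Tyr). Of the 9, 0 passed the edgeR test and 4 had an unadjusted edgeR p under 0.05, with a median log2 ratio of -0.51. The log2 ratio was below 0 for 7 and above 0 for 2, where 50.3% of all tested genes were below 0. Among markers named after their values were seen, it was -1.37 for *dpy-7* and -1.29 for *dpy-10*. It was -0.02 for *lin-26*, -0.03 for *elt-1* and 0.14 for *elt-3*, so the sum does not describe every marker. Moulting and stage genes had a median of -0.92 over 13 genes, with 0 past the edgeR test and 7 at an unadjusted p under 0.05. The log2 ratio was below 0 for 9 and above 0 for 4. Among the 7 was *lin-14*, named after its value was seen, at 0.55. The sums of the 13 genes were 1219 and 1615 CPM in DMSO and 1266 and 814 CPM in Cyclo(Pro-Tyr). The lowest sums were in treated replicate 2, which also held the lowest CPM of *aqp-2*, *aqp-4*, *aqp-7*, *aqp-10* and *aqp-11*.

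Intestine markers had a median log2 ratio of 0.04 and 0 of 9 past the edgeR test, with 3 at an unadjusted p under 0.05, and sums of 8201 to 9388 CPM in DMSO and 7648 to 8866 CPM in Cyclo(Pro-Tyr). Values were above 0 for 6 of them and below 0 for 3. The markers of smallest p, named after their values were seen, went in opposite directions, *ges-1* at 0.67 and *act-5* at -0.53. Neuron markers had a median of 0.24, and their sums of 2857 and 3357 CPM in Cyclo(Pro-Tyr) were above those of 2331 to 2412 CPM in DMSO. Of the 9 log2 ratios 8 were above 0 and 1 below, where 50.3% of all tested genes were below 0. The markers *egl-3*, *egl-21* and *snb-1* were named after their values were seen. From DMSO to Cyclo(Pro-Tyr) the mean of *egl-3* went from 777 to 1157 CPM and that of *egl-21* from 888 to 1147 CPM. Most of the rise in the sum lay in *egl-3* and *egl-21*, so the sum does not describe every marker. The mean of *snb-1* went from 167 to 165 CPM. None of the 9 passed the edgeR test, and 3 had an unadjusted p under 0.05. Muscle markers had a median of 0.12 with 0 of 8 called by edgeR at either the adjusted or the unadjusted threshold, and sums of 10916 to 12658 CPM in DMSO and 13748 to 13757 CPM in Cyclo(Pro-Tyr). Among the 8 germline markers the median was -0.23 and the sums were 143 to 151 CPM in DMSO and 130 to 132 CPM in Cyclo(Pro-Tyr). Of these *nos-2*, a maternal Nanos homologue, was called lower, at 4.12 ± 0.276 and 1.86 ± 0.0526 CPM with an adjusted p by edgeR of 0.0434, a call that edgeR did not make without DMSO replicate 1 (adjusted p 0.219) or without DMSO replicate 2 (adjusted p 0.351). Its log2 ratio was -1.15 over all libraries, and -1.22 and -1.08 in those fits. In these marker lists DESeq2 called 2 intestine, 0 epidermis, 1 neuron, 0 muscle, 2 germline and 1 moulting or stage gene. It called 10.9% of all genes with an adjusted p. From the same lists limma-voom called *nos-2* alone, where it called 2.21% of all tested genes. The part of tissue make-up or stage in the values of the aquaporins was not tested.

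For the member with the smallest p on each side, the genes of most similar pattern were found among genes of at least 10 CPM, by the distance between centred log2 CPM profiles over the 4 libraries. Closest to *aqp-10* were *cpg-7* (distance 0.0144), *swsn-2.2* (0.0163) and Y71F9B.6 (0.0189), with log2 ratios of -0.40, -0.40 and -0.41. Closest to *aqp-5* were Y37F4.7 (0.0124), T28C12.2 (0.0198) and *snt-5* (0.0235), with log2 ratios of 0.25, 0.26 and 0.26. With 4 libraries such matches describe these samples only. Of the genes named outside the family, *cpg-7* and *nos-2* each share 12.4% of their exon bases with a gene on the opposite strand, *gpdh-1* 5.58%, *daf-16* 2.28%, *vha-5* 1.92%, *unc-32* 1.05% and *swsn-2.2* 0.46%, so those counts carry the same uncertainty as that of *aqp-1*. On the same strand, *dpy-10* shares 780 of its 1593 exon bases with T14B4.19 and *lin-26* 156 of 2127 with *lir-1*. For *lin-14* it was 207 of 3665, with snoRNA genes, and for *hsp-12.6* 21 of 769, with a piRNA gene. How reads from shared bases were counted is not known.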

How the data were processed

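The authors deposited raw counts, whole numbers of reads per gene with 1 column per library, and no column was left unused. The submitters' processing notes name Bowtie2 and SAMtools. How reads were counted, on which build and with which use of strand is not given in the sources used here, so no coordinates are printed. Groups and replicate numbers follow the titles. The treated library titled replicate 2 is called replicate 1 in its treatment field. RefSeq's WBcel235 table named 21890 of 21895 rows, and Ensembl release 115 gave exon lengths.

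Genes kept by edgeR's filterByExpr (19439, with 2456 left out) were scaled by TMM (trimmed mean of M-values) and tested with edgeR 4.0.16 (R 4.3.3), treatment being the only term and p-values adjusted over all tested genes. The standard error is the log2 fold change's size over the square root of F, and intervals are 95%. DESeq2 1.42.0, limma 3.58.1 and matplotlib 3.10.9 were also used. All members are named. From each pathway list up to 6 called genes, or otherwise the 2 of smallest p, are named, and others as stated. The members, lists and rules were chosen with earlier results of these data known.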

Additional observations from a re-analysis of the deposited data

How the results depend on the processing

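Alternatives tried were scaling by DESeq2 size factors, upper quartile or total counts, no filter, a filter of 5 CPM in 2 libraries, DESeq2's Wald test, limma-voom, robust and legacy edgeR, a replicate block, leaving out the 10 most abundant genes and leaving out each library. The count of called aquaporins, 0 in the report, was 1 by DESeq2's Wald test (*aqp-2*) and 0 to 2 without 1 library (*aqp-7* and *aqp-10* without Cyclo(Pro-Tyr) replicate 1), and 0 under the others. Directions of aquaporins turned only without DMSO replicate 1, where *aqp-1* had a log2 fold change of 0.017 and *aqp-8* of 0.067. Without 1 library they ran from -0.123 to 0.017 and from -0.223 to 0.067. Over all genes the 398 calls became 841 with upper-quartile scaling, 215 with total counts, 0 with the 5 CPM filter (3736 genes at an unadjusted p under 0.05), 1789 by DESeq2's Wald test and 0 to 4296 without 1 library. The 4 calls of the osmotic list became 0 with the 5 CPM filter, 7 by DESeq2 and 0 to 11 without 1 library. The 1 call of the excretory list became 0, 2 and 0 to 6, and the 2 of the insulin list became 0 with that filter and 0 to 5 without 1 library. The cause was not tested. A fit without 1 library assumes that the lone library varies like the other group.

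With the replicate number as a block, edgeR called 221 genes in all, 0 aquaporins, 1 osmotic and 1 insulin gene. The numbers are not known to pair the samples, and deviations of same-numbered libraries correlated at -0.311. With the numbers crossed, a block chosen after seeing the data, the counts of calls were 4581 in all, 2 aquaporins, 10 osmotic, 7 excretory, 7 insulin and 1 proton pump gene. Levels per kilobase of coding length exchanged the places of *aqp-11* and *aqp-4*, in each library as in the mean, and kept the rest of the order of means. The ranges of these genes over the libraries overlap. Depth limits only *aqp-3*, with 7 to 14 counts a library.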

Other observations

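The table holds 2 more rows whose RefSeq symbol is that of an aquaporin, outside the 10 genes of the report. In *aqp-12* (CELE_Y57A10A.35) DMSO replicates 1 and 2 gave 3.33 and 3.40 CPM and the treated replicates 2.44 and 2.25 CPM. Its log2 ratio was -0.51 ± 0.19 (SE) and an adjusted p by edgeR of 0.141, and its exons overlap *pqn-87* on the opposite strand over 8.09% of their bases. In *aqp-9* (CELE_K07A1.16) the values were 12.7 and 11.2 CPM in DMSO and 10.6 and 12.4 CPM in Cyclo(Pro-Tyr). The groups overlapped, with a log2 ratio of -0.05 and an adjusted p by edgeR of 0.843. The exons of *aqp-9* overlap K07A1.15 on the opposite strand over 12.2% of their bases.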
